A study of Mus musculus with 2 samples.

Results

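Reads that join annotated splice sites in combinations that no annotated transcript holds were examined in mouse cortex by long-read RNA sequencing, in which a single read can cover a whole transcript. The deposited class of such a model is NIC, assigned by TALON, the tool named in the deposited models. Members are NIC models of annotated genes that were found in both libraries with the same chromosome, strand and chain of introns, with 10 or more reads in each library. The rule gave 525 chains in 438 genes, out of 35074 NIC chains of annotated genes and 138163 spliced chains of any class seen in either library. Members were thus chosen by their read counts and their class, so their levels are given as descriptions, and the one test run on them compares the libraries with each other. The tissue was the left cerebral cortex, taken from B6CASTF1/J males, a first-generation cross of C57BL/6J with the wild-derived CAST/EiJ strain, at 14 days of age, with no treatment named. They form 1 group of 2 libraries, labelled replicate 1 and replicate 2, each made from 2 µg of total RNA. Both carry the same donor identifier and the labels mention several males, so each may be a pool, and separate animals are not stated. The 2 libraries held 775048 and 924222 mouse reads in replicate 1 and replicate 2.

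Splicing removes introns between a donor site at the end of an exon and an acceptor site at the start of the next. One gene can yield many transcripts because first exons, cassette exons, donors and acceptors vary, and each choice can be combined with the others along the RNA. Neurons are known for extensive alternative splicing, including very short exons. An annotated transcript records 1 combination, so a new combination of annotated sites can be a known choice seen in an unlisted setting. GENCODE M21, the annotation used by the submitters, describes the C57BL/6J genome build mm10, and all positions below are on mm10 and count from 1.

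The sequences below show the bases at which the most abundant members differ from the annotation. They were read from the GENCODE M21 transcript sequences, 5′ to 3′ on the strand of the gene, with introns left out. In the antizyme genes Oaz1 (chr10:80828262-80828325, plus strand) and Oaz2 (chr9:65686239-65686302, plus strand), capitals mark the bases that 1 annotated transcript leaves out as a gap and the members keep.
Oaz1: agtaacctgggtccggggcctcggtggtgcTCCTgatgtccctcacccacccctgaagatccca
Oaz2: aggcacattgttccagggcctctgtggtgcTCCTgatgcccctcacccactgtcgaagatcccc

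Exons that differ between members and annotated transcripts follow, shown because they carry several of the members with most reads or the shortest exons. In Sept7 (chr9:25252688-25265405, plus strand), Phb2 (chr6:124716019-124716617, plus strand) and Map4k5 (chr12:69818487-69822814, minus strand), capitals mark an annotated exon that the member lacks. In Aplp2 (chr9:31153488-31157706, minus strand), they mark an annotated exon that the member holds and its nearest annotated transcript lacks.
Sept7: gcggcaccatggTTTGTcaaccgaagaac
Phb2: aagttttactcgGGGAAGtgacagcctcat
Map4k5: tgtcattatcagAAGgaaaaacctttc
Aplp2: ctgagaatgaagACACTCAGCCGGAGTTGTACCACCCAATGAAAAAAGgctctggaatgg

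At alternative acceptors, capitals mark the bases between the 2 sites. They are kept in the members of Ctbp1 (chr5:33248672-33249118, minus strand), Fbxo25 (chr8:13929429-13931196, plus strand), Ssx2ip (chr3:146432606-146432987, plus strand) and Cnbp (chr6:87845309-87845476, minus strand), and left out in that of Hgs (chr11:120478743-120479101, plus strand). The last pair compares the acceptor used by the leading Apbb1 member with an annotated exon of the same length, both within chr7:105565636-105566062 on the minus strand.
Ctbp1: ggctgcctacagCAGgtaccctccagg
Fbxo25: caggtgacaaagCAGgtaaacactggc
Ssx2ip: cagctcttacagCAGcagctggccacc
Cnbp: tgcaggaggatgAAGcctgctataact
Hgs: ccctttagtgagCAGtaccagaatggg
Apbb1 acceptor: ggacagtggaagCAACAGggactttgccta
Apbb1 short exon: ggacagtggaagAGAGAGggactttgccta

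The members held 16165 reads in replicate 1 and 18377 reads in replicate 2. These were 32.8% and 32.4% of all NIC reads, and 2.09% and 1.99% of mouse reads. Most other NIC models were rare, with a single read in 71.3% of those of replicate 1 and 70.6% of those of replicate 2. A member had a median of 18 reads in replicate 1, with a range of 10 to 573, and of 21 reads in replicate 2, with a range of 10 to 784. Around the threshold, 96 and 66 chains had a lower count of 8 and 9 reads, while 68 and 56 had a lower count of 10 and 11. The median share of the gene's reads was 17.2% for those with a lower count of 10, against 10.2% for those with 9.

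Members took a median of 17.0% and 17.3% of their gene's reads in replicate 1 and replicate 2. The 6448 Known chains (those of an annotated transcript) that reached the same minimum took 70.5% and 69.0%. Another 141 chains of the class NNC, which holds an unannotated splice site, took 26.5% and 26.7%. Shares of members ranged widely, with 42 over 50% in both libraries, 206 over 20% and 54 under 5%. The SD of a member's share between the libraries had a median of 1.85 percentage points (n = 2). A member held the most reads of any model of its gene in both libraries in 143 cases, and in 1 library only in 52. It had more reads than every Known transcript of the gene in both libraries in 202 cases, and 17 members lay in genes with no Known read at all. Members had a median of 12 exons, with a range of 2 to 39, against 8 exons in Known and 9 in NNC chains of the same minimum. Their median length was 2851 and 2853 bases in replicate 1 and replicate 2, against 2564 bases for Known chains in each.

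**Figure D1:**
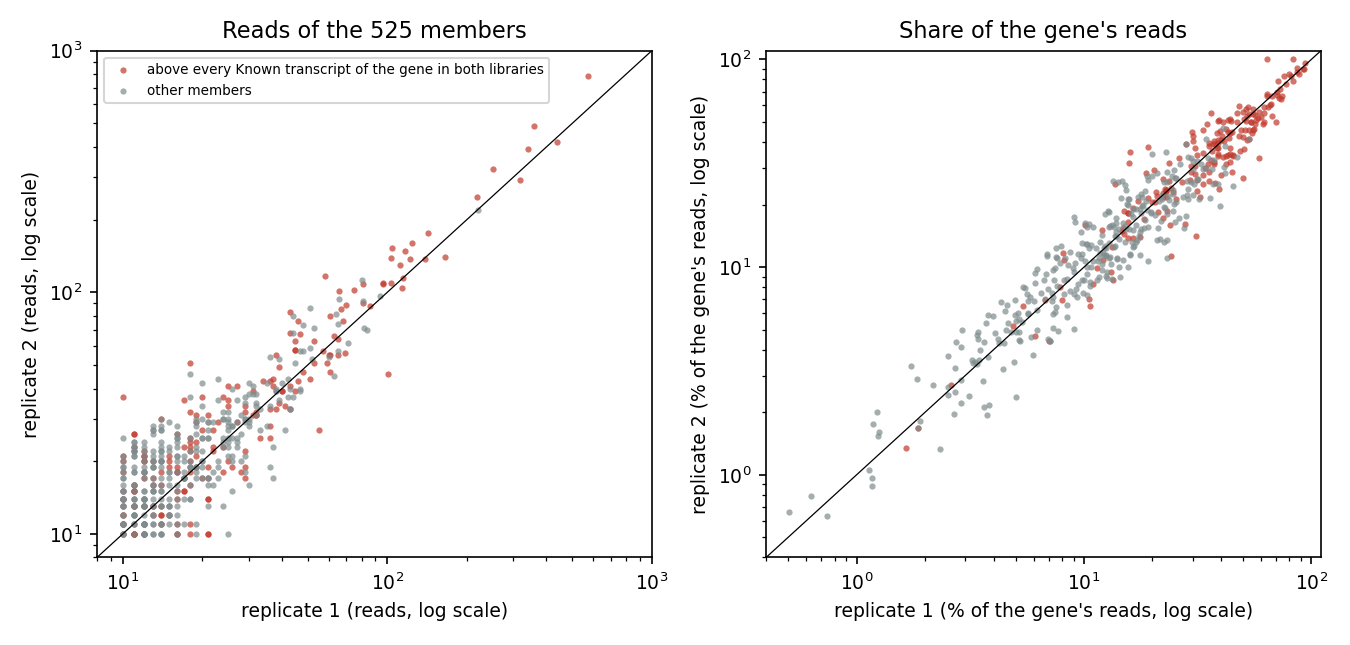
Reads of each member (left) and its share of the gene's reads in percent (right) in replicate 2 (vertical axis) and replicate 1 (horizontal axis), on log scales, with a line at equality. Red points are the 202 members with more reads than every Known transcript of their gene in both libraries; they lie mostly at high shares, and some members lie well off the line, such as Osbp2 with 10 reads in replicate 1 and 37 in replicate 2.

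Share of the gene's reads was compared between the libraries for every spliced chain of annotated genes with 10 or more reads over both, with Fisher's exact test, two-sided, and Benjamini-Hochberg adjustment over 13415 chains. The test sets the 2 libraries against counting error and compares no conditions. Across all chains 17 passed an adjusted p of 0.05, or 0.127%. None of 524 members passed it, and 21 had an unadjusted p under 0.05. The minimum of 10 reads in each library removes chains that differ strongly, so the count is read with the rule that made the set. The 1 member left out of the test was assigned to Pigo in 1 library and to its neighbour Stoml2 in the other, with 19 reads in replicate 1 and 26 in replicate 2.

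Chains of the first library were looked for in the second whatever class each library gave them. Of NIC chains with a single read in replicate 1, 24.3% had a read in replicate 2, and the share was 61.6% at 2 reads, 83.8% at 3 to 4 and 97.7% at 5 to 9. All 412 NIC chains with 10 to 19 reads and all 251 with 20 or more were found again. The same held for all 2296 and 4556 Known chains at those counts, while Known chains with a single read were found again in 50.6% of cases. The deposited class was less stable than the chain, and 95.6% and 93.6% of the NIC chains at 10 to 19 and at 20 or more reads were NIC in both libraries. A further 54 chains had 10 or more reads in each library and were NIC in 1 library alone. In the other library 32 of them were NNC and 22 were incomplete splice matches (ISM). One of these, in Sh3glb2, had 155 reads (42.0% of the gene's reads) in replicate 1 and 194 (42.3%) in replicate 2.

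**Figure D2:**
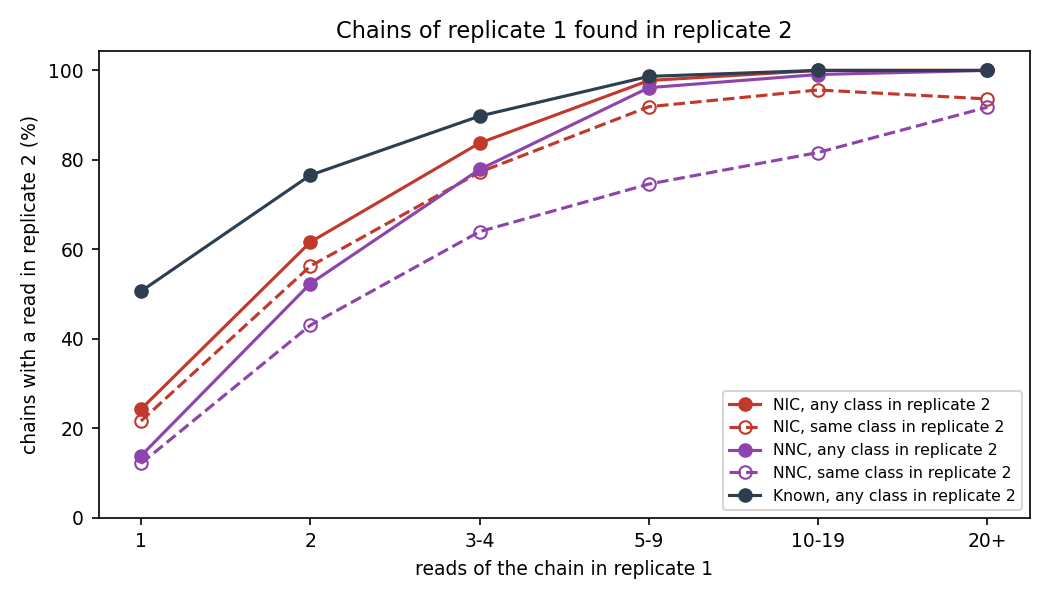
Percentage of chains of replicate 1 that had a read in replicate 2 (vertical axis), by the number of reads in replicate 1 (horizontal axis), for NIC, NNC and Known chains. Solid lines count the chain in any class and reach 100% for NIC at 10 or more reads; dashed lines require the same class and end at 93.6% for NIC.

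The label of known splice sites was checked against the annotation. In 505 members every donor and acceptor was annotated. The other 20 members, in 16 genes, held at least 1 site that no transcript of GENCODE M21 uses as such, although both libraries called them NIC. All 32 chains classed NIC in 1 library and NNC in the other held such a site, as did all 141 NNC chains. Several of the unannotated sites were the main ones of their gene region. In Hnrnpk, which encodes an RNA-binding protein of the nucleus, a donor 16 bases downstream of the closest annotated one carried 494 junction reads in replicate 1 and 536 in replicate 2. The closest annotated donor, joined to the same acceptor, carried 13 and 11 reads, and that junction is not annotated either. The 4 Hnrnpk members rest on the unannotated donor. A Dctn1 donor, 17 bases downstream of the annotated one, carried 161 and 169 reads, against 24 and 30 for the annotated donor. Dctn1 encodes the large subunit of dynactin, a cofactor of the dynein motor, and its member had 96 and 108 reads, or 41.4% and 40.4% of the gene's reads. In Eri3 the order was the other way, with 47 and 50 reads at the unannotated acceptor against 196 and 252 at the annotated one.

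Among the 525 members, 432 used only introns that are annotated in the gene, so that the combination alone was new. Of these, 393 could be laid out as 2 stretches, each within an annotated transcript, 36 needed 3 stretches and 3 needed 4. The introns missing from the nearest annotated transcript came only from incomplete or noncoding transcripts in 248 of the 432 (57.4%). A new junction was present in 93 members, and 73 of these paired annotated sites only. New junctions numbered 99, of which 84 were annotated in no gene, with a median of 36 reads in replicate 1 and 35 reads in replicate 2. Members held 47.7% and 46.2% of the reads of these junctions, and other models held the rest. The first base of the model was an annotated transcript start in 517 members and the last base an annotated end in 479. Within 100 bases the counts were 517 and 480, so ends matched an annotated one exactly or, with 1 exception, lay further away. Whether the model ends are those of the reads was not tested, so these counts do not show where the RNA starts or ends. In 102 members an end differed by over 100 bases between the libraries, and the ends were not analysed further.

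Each member was set beside the annotated transcript of its gene that shares most introns with it. The most frequent single differences were a skipped exon (107 members), a moved acceptor (83), another first exon (81) and a moved donor (73). This order depends on the transcript chosen as nearest: with ties broken by the fewest other introns, differing ends and skipped exons had 86 members each, and with the most read Known transcript, added exons had 67 members and moved donors 66. An intron was kept in 41 members and an exon added in 39. Only the ends of the chain differed in 37, the last exon in 19, and 29 combined several differences. Smaller classes were an intron cut out of an annotated exon (5), an intron with both sites moved (5), an exchanged exon (4) and several differing exons (2). Median shares of the gene's reads lay between 9.63% for another last exon and 41.5% for an intron cut out of an exon. They were 18.1% for skipped exons, 17.0% for acceptors, 16.9% for first exons and 17.7% for donors, beside 17.7% for all members.

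**Figure D3:**
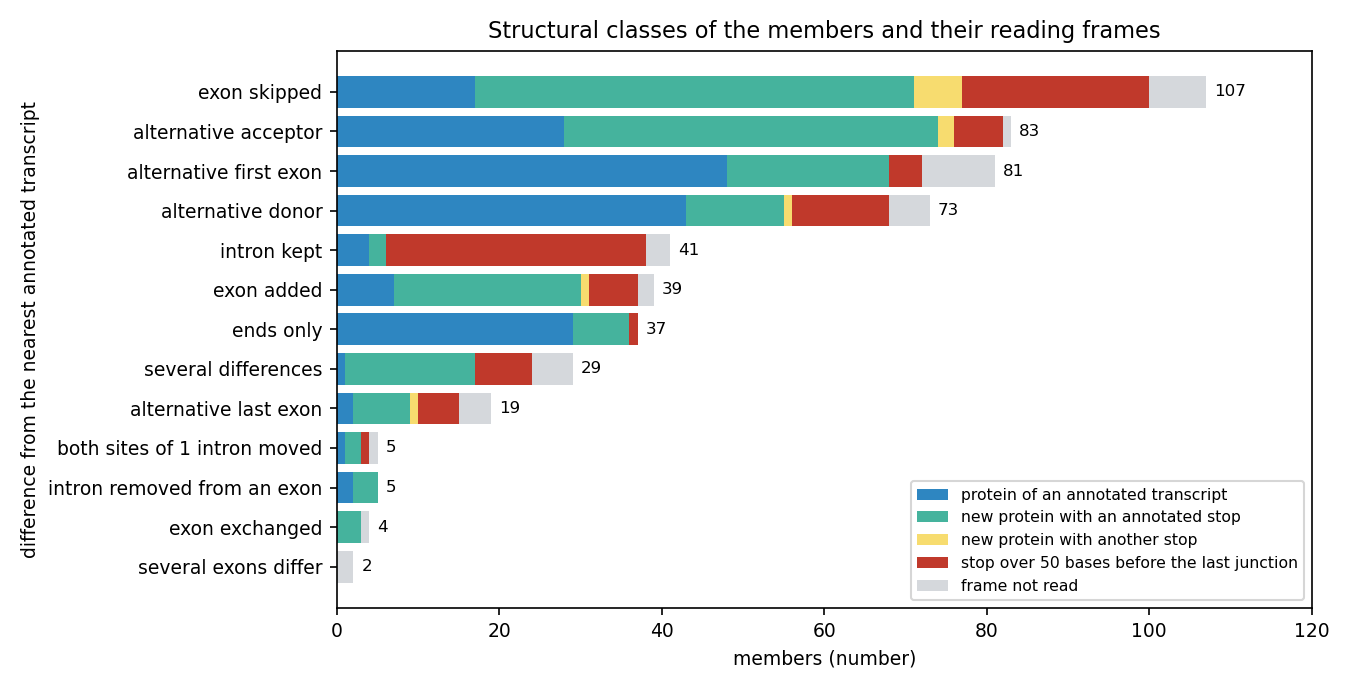
Number of members (horizontal axis) in each class of difference from the nearest annotated transcript (vertical axis), with the outcome of the predicted reading frame in colour. Skipped exons lead with 107 members. Kept introns have the highest share of frames counted as stopping over 50 bases before the last junction, 32 of 41, with the leading Oaz1 and Oaz2 members among them.

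The member with most reads belonged to Oaz1, which encodes antizyme 1, an inhibitor of ornithine decarboxylase and so of polyamine synthesis. Antizymes are made through a programmed shift of the ribosome to another frame at a stop codon, and the annotation stands in for that shift with a gap of 1 or 4 bases in the transcript. In Oaz1 the gap is position 80828295 alone or 80828292 to 80828295, and other annotated transcripts of the gene cover these bases. The member that reads through it had 573 of the gene's 609 reads in replicate 1 (94.1%, 95% Wilson interval 91.9 to 95.7) and 784 of 817 in replicate 2 (96.0%, interval 94.4 to 97.1). Oaz2, which encodes antizyme 2, gave a like picture, with 340 of 370 reads (91.9%, interval 88.7 to 94.3) and 391 of 433 reads (90.3%, interval 87.1 to 92.7). Both genes carry the same 4 bases at the gap, as the sequences above show. Known transcripts of Oaz1 had no read in either library. In all, 6 members in 4 genes kept an annotated gap of 11 bases or fewer, the others being a second Oaz1 chain, 2 of Dmtn and 1 of Nadk2. Over genes with 50 or more reads in each library, the annotation holds 12 introns of 11 bases or fewer, and none had a read in either library.

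Very short annotated exons formed a second group of leading members. Sept7 encodes a septin, a filament-forming GTP-binding protein of the cytoskeleton. Its member had 439 reads in replicate 1 (88.3% of the gene's reads, interval 85.2 to 90.9) and 418 in replicate 2 (85.1%, interval 81.7 to 88.0), with no read of any Known Sept7 transcript. It lacks a 5-base exon at 25265302 to 25265306. The intron that spans this exon also spans annotated exons at 25264203 to 25264207 and at 25264206 to 25264207. Phb2, which encodes a prohibitin of the inner mitochondrial membrane, had a member with 86 of 93 and 88 of 98 reads that lacks a 6-base exon. The Map4k5 member lacks 3 bases and had 27 of 34 and 29 of 34 reads; Map4k5 encodes a protein kinase. In Mpc1, a subunit of the mitochondrial pyruvate carrier, the member had 103 of 119 and 139 of 153 reads. Its first intron spans annotated exons of 4 bases at 8293415 to 8293418 and at 8296527 to 8296530. In all, 15 members in 14 genes had an intron that spans an annotated exon of 11 bases or fewer with the same outer sites.

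No read in either library held any of the 51 annotated internal exons of 11 bases or fewer in genes with 50 or more reads each. Exons of 12 to 27 bases had a read in both libraries in 145 of 285 cases (50.9%), those of 28 to 51 bases in 82.6% and those of 52 to 300 bases in 90.7%. Whether the reads carry the bases of the shortest exons was not tested, since the deposited models give exon positions and no read sequence. Taken with the kept gaps, 21 members keep an annotated gap or span an annotated exon of 11 bases or fewer. That feature is not always the difference from the nearest transcript, which is a 3-base acceptor shift in Iffo1 and an 81-base exon in Mpc1. Of these, 19 had more reads than every Known transcript in both libraries, and their median share was 34.4%, beside 17.7% for all members.

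The leading Apbb1 member touched the same length range. Apbb1 encodes Fe65, an adaptor that binds the tail of the amyloid precursor protein. The chain had 358 of 650 reads in replicate 1 (55.1%, interval 51.2 to 58.9) and 486 of 844 in replicate 2 (57.6%, interval 54.2 to 60.9). It starts an exon 6 bases upstream of the nearest annotated transcript, at an acceptor that 1 annotated transcript uses. Over all models that acceptor had 549 and 734 junction reads, against 80 and 80 for the shorter form. Instead, 6 annotated transcripts hold a separate exon of 6 bases (105565946 to 105565951) at the same point, with other bases and no read. Among 59 members with a donor or acceptor moved by 11 bases or fewer, Apbb1 was the 1 gene with an annotated exon of that same length. Together 4 Apbb1 members held 73.1% and 75.7% of its reads.

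**Figure D4:**
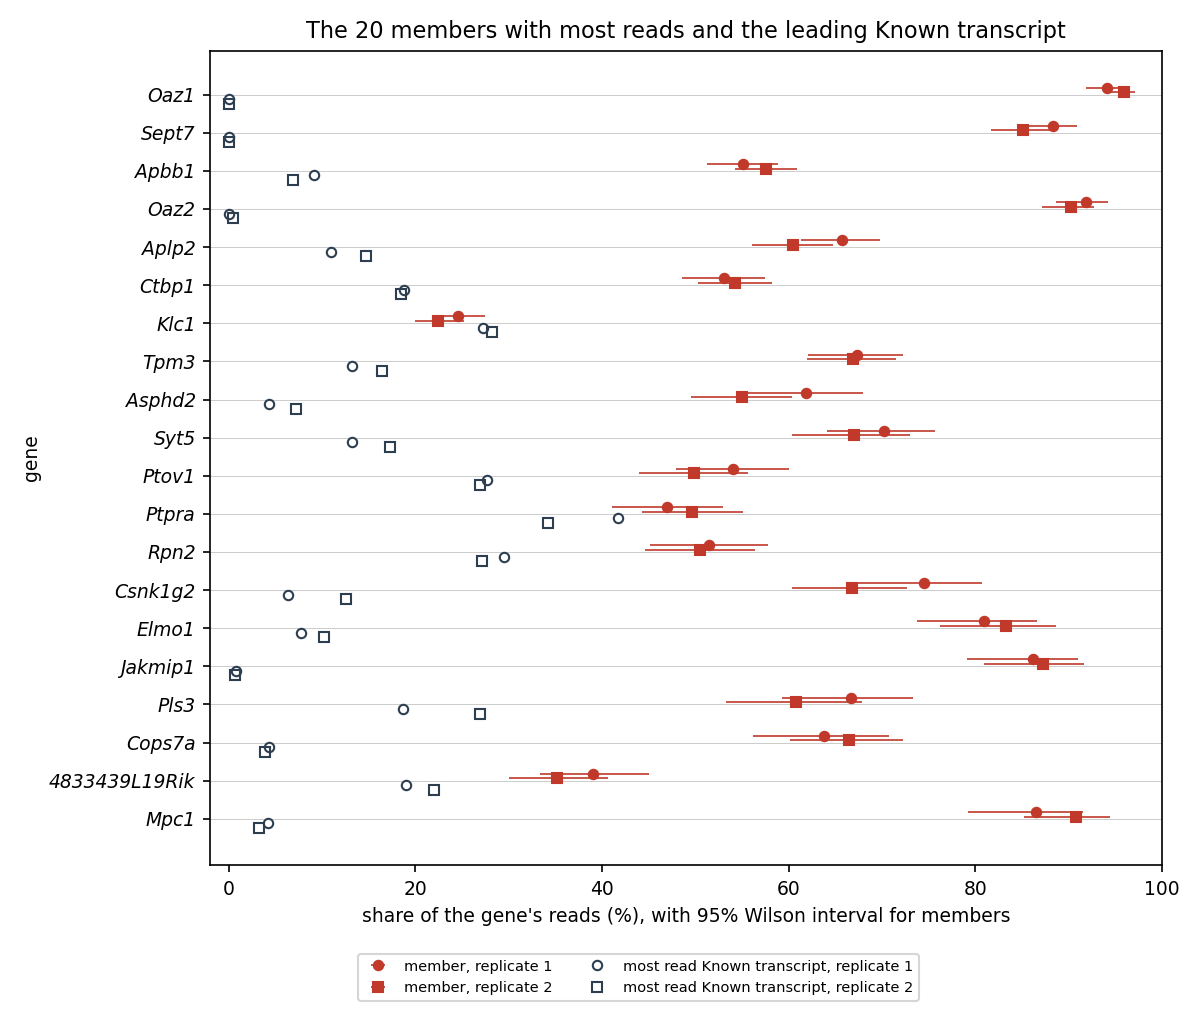
Share of the gene's reads in percent (horizontal axis) for the 20 members with most reads in the library where they have fewer (red, with 95% Wilson intervals) and for the most read Known transcript of the same gene (open symbols), in replicate 1 (circles) and replicate 2 (squares). Members lie above the Known transcript in 19 genes and below it in Klc1, where the values are 24.6% and 22.4% for the member.

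Acceptors that moved did so mostly over short distances. Of 83 members with a moved acceptor, 41 members in 39 genes moved by exactly 3 bases, with 19 exons longer and 22 shorter than in the nearest transcript. Among the 73 moved donors, 1 moved by 3 bases, and the median shift was 78 bases for donors and 4 bases for acceptors. Paired acceptors of this kind, each ending in AG, are known as NAGNAG sites and can add or remove a single residue where the bases are coding. The 3 bases between the sites were CAG in 27 members, AAG in 7 and TAG in 6, and GAG in none; for 1 member they were not available. Junction reads at the member's acceptor made up a median of 32.0% of those at both acceptors in replicate 1 and 33.3% in replicate 2. Their share was 20% to 80% in both libraries for 22 of the 41 members, over 80% for 4 and under 20% for 11.

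Ctbp1, which encodes a transcriptional corepressor, led this class with 251 of 473 reads in replicate 1 (53.1%, interval 48.6 to 57.5) and 323 of 595 in replicate 2 (54.3%, interval 50.3 to 58.2). The acceptor that keeps CAG had 386 and 485 junction reads, against 80 and 97 for the other. Fbxo25, a substrate-binding subunit of a ubiquitin ligase, had 61 of 79 and 80 of 105 reads, and 85.9% and 87.4% of junction reads at the member's acceptor. The member of Hgs, a sorting protein of endosomes, leaves CAG out, with 72.7% and 75.7% of junction reads at its acceptor. In Cnbp, a nucleic acid binding protein, the minority form was the member, with 29.6% and 25.5% of junction reads at the acceptor that keeps AAG. For these 4 genes the 2 libraries differed by less than 5 percentage points and lay on the same side of 50%.

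**Figure D5:**
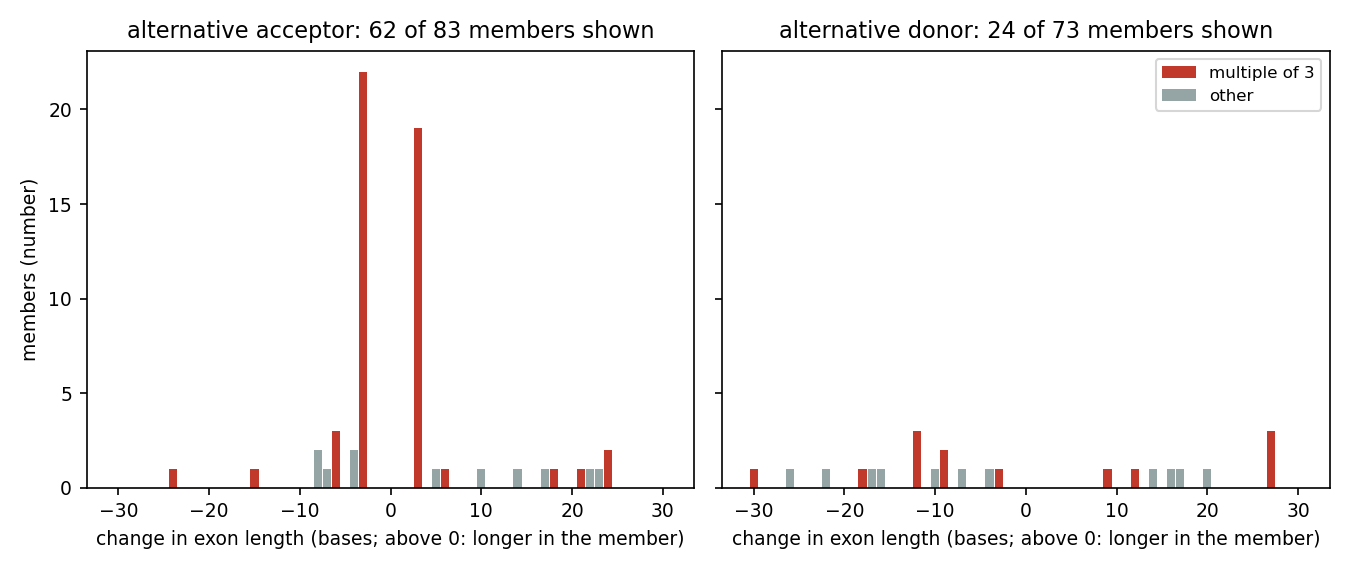
Number of members (vertical axis) by the change in exon length in bases (horizontal axis, above 0 when the exon is longer in the member) for moved acceptors (left) and moved donors (right), with multiples of 3 in red. The plot shows changes of up to 30 bases, 62 of 83 acceptors and 24 of 73 donors; the bars at 3 bases hold 22 and 19 acceptor members.

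Of members with a moved donor, 43 of 73 gave the protein of an annotated transcript, beside 28 of 83 with a moved acceptor. Cops7a, a subunit of the COP9 signalosome, had 104 of 163 and 153 of 230 reads on a chain whose donor lies 117 bases upstream, with the annotated protein unchanged. That donor took 95.3% and 94.6% of the junction reads at both donors. The Hspd1 member, of the mitochondrial chaperonin gene, shortens an exon by 210 bases at the donor and had 82 and 71 reads, against 147 and 136 for the most read Known transcript. Both frames gave an annotated protein.

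Cassette exons accounted for 146 members, 107 by skipping and 39 by addition. The length was a multiple of 3 in 62 of 106 members that differ only by skipping (58.5%) and in 26 of 38 that differ only by addition (68.4%). Lengths were summed where more than 1 exon differed. No share over all annotated exons was set beside these values, so they do not show whether members keep the frame more often. The 106 include 8 exons of 11 bases or fewer that no read included. Exon inclusion was then counted over all models of the gene: reads that hold both junctions of the exon, as a percentage of these plus reads that skip it by joining the flanking exons. For 89 skipped exons over 11 bases the median inclusion was 66.7% in replicate 1 and 63.8% in replicate 2. It lay between 20% and 80% in both libraries for 45, over 80% for 22 and under 20% for 15. The 35 added exons had a median inclusion of 52.2% and 48.0%, and none was over 80% in both libraries.

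Aplp2, which encodes a relative of the amyloid precursor protein, had 318 of 484 reads (65.7%, interval 61.4 to 69.8) and 292 of 483 reads (60.5%, interval 56.0 to 64.7) on a chain that adds a 36-base exon. Reads with that exon numbered 380 and 340, against 81 and 108 without it. In Ptpra, a receptor tyrosine phosphatase, the added exon has 27 bases and was included in 52.6% and 59.5% of reads, and the member had 124 and 160 reads beside 110 and 110 for the leading Known transcript. The Tpm3 member, of a tropomyosin gene that stabilises actin filaments, skips a 79-base exon that was included in 8.39% and 7.31% of reads. It held 219 of 325 and 249 of 372 reads. Cttn encodes cortactin, which binds branched actin, and its member skips a 111-base exon with 37.9% and 44.3% inclusion. In Adap1, which encodes a GTPase-activating protein rich in neurons, a 131-base exon was included in 84.3% and 84.5% of reads, and the skipped form had 80 and 112 reads. Ndrg4, the gene with the lowest shares among these, had 65 and 57 reads (2.72% and 2.50%) on a chain that skips a 39-base exon, although that exon was included in 57.7% and 52.4% of reads of all models. Its leading Known transcript had 811 and 734 reads.

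Another first exon or an extended start was the difference in several leading members. Jakmip1, which encodes a protein that links to microtubules and is abundant in neurons, had 112 of 130 and 130 of 149 reads on a chain with another first exon, and its most read Known transcript had 1 read in each library. Elmo1, a partner of Rac activators, had 115 of 142 and 115 of 138 reads, and no annotated start codon lay in that chain. Syt5, a synaptotagmin of vesicles, had 165 of 235 reads (70.2%) and 140 of 209 reads (67.0%) on a chain that extends upstream of its nearest annotated transcript, and the leading Known transcript had 31 and 36. The protein was that of the annotation in Syt5, in Jakmip1 and in Asphd2, where 143 and 176 reads extend the chain at its start. Csnk1g2, a casein kinase gene, showed an intron of 81 bases cut out of an annotated exon in 117 of 157 and 149 of 223 reads.

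Klc1 had most members. It encodes a light chain of kinesin-1, whose end binds cargo and varies by splicing. Its 7 members held 542 of 900 reads in replicate 1 (60.2%) and 565 of 976 in replicate 2 (57.9%). The first adds a 51-base exon through a new junction and had 221 reads (24.6%) and 219 reads (22.4%), against 245 and 275 for the most read Known transcript. Among reads with the same flanking donor and acceptor, that exon was included in 46.2% and 46.4%. A member with 84 and 70 reads holds the exon through another donor and is not counted there. Besides the first, 6 members held between 21 and 84 reads in replicate 1 and between 13 and 94 in replicate 2. Mff, which recruits the fission machinery to mitochondria, had 4 members with 12 to 30 and 13 to 42 reads. They combined an added 33-base exon, a 3-base acceptor shift and a skipped pair of exons, and 1 chain held both of the first 2. The 3 members of Celf4, an RNA-binding splicing regulator, differed at 1 donor, at 1 acceptor or at both sites of an intron, with 47 and 57, 14 and 11, and 24 and 25 reads.

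A reading frame was predicted from an annotated start codon for 485 members. It gave the protein of an annotated transcript in 182 (37.5%) and a new protein that ends at an annotated stop in 195 (40.2%). In 97 (20.0%) the protein was not an annotated one and its stop lay over 50 bases before the last junction. A stop so placed is the textbook mark of a target of nonsense-mediated decay. Another stop was used in 11. Frames that gave an annotated protein were counted under it wherever the stop lay. In the Ptov1 member that stop lay 54 bases before the last junction. Among Known chains with the same minimum, 74 of 6324 (1.17%) were scored as early stops. That value cannot be set against the 20.0% of members, because the annotated protein was scored first and nearly all Known coding chains give one. The same procedure returned an annotated protein for 6205 of 6233 Known coding chains (99.6%). It reads no frameshift and no recoded stop, so the Oaz1 and Oaz2 members fall among the early stops. The Sept7 and Mpc1 members, which span annotated exons of 11 bases or fewer, were also scored there, with predicted proteins of 25 and 42 residues. Without the members that keep a gap or span an exon of 11 bases or fewer, 87 early stops remain. Their median share was 13.2% of the gene's reads, beside 17.9% for members with the other outcomes. More reads than every Known transcript were found for 16 of these 87.

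Kept introns were the largest class among the early stops, with 32 of 97. The 32 include the leading Oaz1 and Oaz2 members, which keep annotated gaps of 4 bases and 1 base. Kept introns of genes in the RNA binding and splicing list are given here. Srsf5, an SR protein gene, kept an intron of 1229 bases in 37 and 44 reads (22.3% and 26.7% of the gene's reads), beside 23 and 23 reads of its leading Known transcript. Srsf7 kept 874 bases in 12 and 14 reads, Hnrnpu kept 1855 bases in 27 and 23 reads, and Ddx39b kept 2177 bases in 15 and 17 reads. All 4 frames stopped early. The chain of Hnrnpa2b1 that kept 1355 bases had 17 and 11 reads and gave an annotated protein. Whether such RNA had left the nucleus was not tested. Skipped exons gave 23 early stops and moved donors 12.

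Genes with more reads were more often seen with a member. The share of genes with a member was 2.88% at 20 to 49 reads in the library with fewer reads, 7.06% at 50 to 99, 12.3% at 100 to 199, 19.0% at 200 to 499 and 21.3% at 500 or more. Among 3195 genes with 50 or more reads in each library, 349 had a member (10.9%). Gene groups were read beside that value, without a match on depth. They were set by patterns of gene symbols, and a gene counted under the first pattern it matched. Names of groups are therefore approximate: the kinase gene Map2k4 counted under cytoskeleton and motors, and Cops7a under membrane traffic and lysosome. For receptors and postsynaptic scaffolds 7 of 32 genes had a member (21.9%), for RNA binding and splicing 13 of 66 (19.7%), for cytoskeleton and motors 17 of 91 (18.7%) and for synaptic vesicle and SNARE genes 7 of 43 (16.3%). The myelin and glia list had 6 of 21 (28.6%), namely Ndrg2, Ndrg3, Ndrg4, Clu, Cd47 and Sparcl1. No gene of a myelin protein was among these 6, and Mag, with 58 and 40 reads, lay below the minimum. The lowest were mitochondria and energy with 4 of 131 (3.05%) and translation with 3 of 81 (3.70%). Remaining groups lay between 8.70% for channels, pumps and transporters and 15.0% for transcription and chromatin.

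The 10 members of the synaptic vesicle and SNARE list had a median share of 17.8%, beside 17.7% for all members. More reads than every Known transcript were found for 5 of them, beside 202 of all 525 members. Both Snap91 chains are among the 5, and each spans an annotated 6-base exon. As given above, no annotated internal exon of 11 bases or fewer had a read. Snap91, an assembly protein of clathrin coats, had 96 and 109 reads (42.3% and 34.2%) on a chain that lacks a 6-base exon and moves an acceptor by 15 bases. Bin1, which bends membranes, had 58 reads (39.2%) in replicate 1 and 117 reads (51.1%) in replicate 2 on a chain that skips a 108-base exon, an unadjusted p of 0.0265 in the Fisher's exact test that did not pass adjustment. Gabra5, an alpha subunit of the GABA-A receptor, had 30 reads (31.9%) and 16 reads (21.3%) with another first exon. Camk2g, a subunit of CaM kinase II, exchanged a 69-base exon for a 63-base one in 12 and 21 reads. A Camk2b member that skips 45 bases had 17 and 14 reads, with the exon included in 92.3% and 95.9% of reads. Mag, a myelin glycoprotein, had 29 of 58 and 17 of 40 reads with another first exon. All 4 oligodendrocyte markers were read in both libraries and summed to 2519 CPM (reads of a gene relative to all mouse reads of the library) in replicate 1 and 1636 CPM in replicate 2; their part in the Mag values was not tested.

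Markers of the tissue fitted cortex, with all 9 markers of cortical glutamatergic neurons and all 5 of inhibitory neurons read in both libraries. Striatal markers summed to 928 CPM in replicate 1 and 223 in replicate 2, with Drd2 and Adora2a at 0 in a library, and choroid plexus markers to 38.7 and 256 CPM. None of those striatal or choroid plexus genes had a member, and neither did any of the 9 cortical glutamatergic or 5 inhibitory markers. Of genes with 50 or more reads in each library 10.9% had a member, so lists this short cannot show whether members differ with these markers. In bulk tissue, fewer cells of a type and less RNA per cell cannot be told apart.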

How the data were processed

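Transcript models and whole-read counts per model, not normalized, were deposited by the authors for each library, and the submitters' text names mm10 and GENCODE M21. For the aligner, a name was not given in the sources used here. Chains of introns were matched between the libraries by chromosome, strand and every intron, and counts of models with the same chain were summed. Shares are counts divided by all counts of the gene, with 95% Wilson intervals that cover counting error only. The nearest annotated transcript shared most introns with the chain. Reading frames were read from annotated start codons on GENCODE M21 transcript sequences. The Fisher's exact test was checked on simulated data. Python 3.11.15, pandas 2.3.3, scipy 1.17.1, statsmodels 0.14.6 and matplotlib 3.10.9 were used.

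Members and gene lists were chosen with earlier results of these data known. Named members were those with most reads or the largest shares, the leading ones of each class of difference and gene list, those with most skipped exons and the genes with most members. Eri3, Map4k5, Nadk2, Ssx2ip, Hgs, Cnbp, Cttn, Adap1, Srsf5, Srsf7, Hnrnpu, Ddx39b, Hnrnpa2b1, Camk2b, Mag, Osbp2 and the Sh3glb2 chain were named after their values were seen. Depth was 775048 and 924222 mouse reads in replicate 1 and replicate 2. As separate animals are not stated, p-values measure only the difference between these libraries. Spike-in transcripts were not analysed here. Some items are not reported here. Alternatives covered the read minimum, the ends of the model, the reads in the denominator, the choice of nearest transcript and leaving out each library.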

Additional observations from a re-analysis of the deposited data

How the results depend on the processing

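The number of members followed the read minimum, with 1178 chains at 5 reads and 203 at 20 reads in each library, against 525 at 10. Leaving out a library gave 663 to 792 chains. With reads of Known, NIC and NNC models alone as the denominator, the median share was 22.3%, against 17.7%. Members passing the Fisher's exact test of shares numbered 0 in 4 of the 5 settings run (18 to 21 at an unadjusted p under 0.05) and 2 when set against all other mouse reads, where 132 of 13492 chains passed (0.978%). Those 2 were lower in replicate 2, Zcchc12 with 46 reads in replicate 2 and 101 in replicate 1, and Sec23b with 27 reads in replicate 2 and 55 in replicate 1. With the most read Known transcript as the nearest, exons added numbered 67, several differences 44 and several differing exons 11. With ties broken by the fewest other introns, an alternative chosen after seeing the data, ends only numbered 86, introns cut out of an exon 11 and several differing exons 1. The cause of these changes was not tested. Also chosen after seeing the data were leaving out short annotated features (504 members), leaving out unannotated sites (505) and taking NIC in at least 1 library (579). The other results moved by less than 1.5 times. Members near 10 reads have wide intervals, and rarer chains were not detectable as members at this depth. No paired analysis was possible because the 2 libraries form 1 group.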
